A study of Mus musculus with 6 samples.

Results

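The genes described here handle iron and the other trace metals that LN endothelial cells take up, store and release. They are ceruloplasmin (Cp) and 9 more genes, Heph, Slc40a1, Slc11a2, Tfrc, Fth1, Ftl1, Hmox1, Mt1 and Mt2, so 10 genes in all beside the 18193 genes that had a probe set of their own on the array. Every probe set whose symbol in the platform annotation was 1 of these names was taken, which gave 30 of the 45101 probe sets. Of the 30, 24 belong to 1 gene only, 3 are shared by Ftl1 and other loci, and 3 are control probe sets for segments of the Tfrc transcript. The group was chosen on the difference between the 2 cell populations in these same log2 values, which was already known. Its values in that comparison are therefore a description, and no p-value is given for a member.

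Endothelial cells came from 6-week-old C57BL/6 mice. Skin-draining and mesenteric LN were pooled and digested with collagenase, CD45+ cells were depleted with magnetic beads, and CD45neg live cells were sorted by gp38 and CD31. The 2 populations compared are the double positive cells (3 arrays, replicates 1 to 3) and the CD31+ cells (3 arrays, replicates 1 to 3), and nothing in the labels separates them beyond the gate. How many mice went into a replicate is not given in the sources used here. The labels pair double positive with the word BEC and CD31+ with the word LEC, whereas in the study's gates the LEC are gp38+ CD31+ and the BEC are gp38neg CD31+. The word for the cell type and the word for the gate thus name opposite populations, and the arrays are called here by the gate word. Read by the cell type word, every signed difference below would turn round. The markers of the 2 lineages in the next paragraph, Prox1 apart, lay with the gate word.

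Markers of the 2 lineages were checked first. Pdpn, which encodes gp38, had log2 values of 8.32, 7.33 and 7.28 on double positive arrays, against 3.69, 3.75 and 3.29 on CD31+ arrays (difference 4.07, adjusted p = 0.0428 by limma). Of 11 measured lymphatic endothelial markers, 8 were called higher in double positive cells, beside 1.06% of all genes. Prox1, a regulator of the lymphatic lineage, was not among them. Its brightest probe set had 6.73, 6.56 and 9.2 in double positive cells, against 7.32, 6.92 and 8.04 in CD31+ cells (difference 0.07). Of 9 measured blood endothelial markers, 6 were called lower, beside 0.225% of all genes. Among the 6 was Flt1, with a difference of -4.52 (3.51, 3.45 and 3.54, against 7.77, 8.24 and 8.05 in CD31+ cells). With the replicate number as a block in the test over all probe sets, 0 of the 11 and 0 of the 9 were called (Pdpn, adjusted p = 0.196 by limma). That fit called 0.022% of all genes higher and 0% lower. Among probe sets that reached a log2 value of 5 on at least 3 arrays, with the same block, all 11 lymphatic markers were called higher and 8 of the 8 blood markers tested lower. In that fit 49.2% of the genes tested were called higher and 5.25% lower. Prox1 was called there through a probe set other than its brightest. A marker can pass that filter through the population where it is high, as Pdpn and Flt1 did, so these calls are no separate support. At brightest probe sets, 10 of the 11 lymphatic markers were higher without overlap and those 8 blood markers lower, beside 47.7% and 5.99% of genes passing the filter. Prox1 apart, the markers thus lay with the gate word. Pecam1, which encodes CD31 itself, lay between 2.39 and 2.43 on double positive arrays and between 2.43 and 2.59 on CD31+ arrays, at or near the floor of 2.39 that the values have, so these arrays do not show the gating antigen shared by both populations.

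Iron is taken up by cells bound to transferrin, through the transferrin receptor, or as the free ion, through the divalent metal transporter. Inside the cell it is held in ferritin, a shell of heavy and light chains, or used to make heme, which heme oxygenase breaks down again. Iron leaves the cell through ferroportin as the ferrous ion and has to be oxidised by a copper-containing ferroxidase, ceruloplasmin or hephaestin, before transferrin can bind it. Ceruloplasmin is best known as a plasma protein made by the liver, and it also exists as a form anchored in the cell membrane. Metallothioneins are small cysteine-rich proteins that bind zinc and copper, and the transcription factor MTF-1 raises their transcription when zinc is plentiful by binding metal response elements in their promoters.

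The promoters of Mt1 and Mt2 are shown because these neighbouring genes on chromosome 8 had a common profile over the 6 arrays, described further below. That profile was not particular to them, as Fth1 and Heph varied alike among replicates. The sequences are from RefSeq on mouse assembly GRCm38.p6, plus strand. They are in lower case, with capitals marking the core of the metal response element, TGCACNC or TGCGCNC, sought on both strands.
Mt1, the 150 bases before the start, chr8:94178939-94179088: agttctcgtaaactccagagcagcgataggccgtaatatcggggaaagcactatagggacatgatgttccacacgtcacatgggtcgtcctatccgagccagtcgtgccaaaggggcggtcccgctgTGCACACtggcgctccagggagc
Mt1, the 30 bases from the start, chr8:94179089-94179118: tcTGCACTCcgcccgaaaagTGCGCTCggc
Mt2, the 150 bases before the start, chr8:94172468-94172617: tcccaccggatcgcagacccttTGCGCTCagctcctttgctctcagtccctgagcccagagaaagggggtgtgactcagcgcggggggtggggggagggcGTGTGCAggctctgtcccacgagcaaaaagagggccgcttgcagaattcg
Mt2, the 30 bases from the start, chr8:94172618-94172647: ggtcGTGCGCAggcccaggggcgtgtgctg

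In the window of 300 bases around each start (250 before it and 50 from it on), Mt1 held 3 matches of the core, which begin at positions -23, 3 and 21 counted from the start as 1. Mt2 held 4, at positions -223, -128, -50 and 5. Of 32851 promoters of the same length, 25.7% held at least 1 match and 1.97% held 3 or more. RefSeq promoters were matched for 6 members with 9 starts between them. No match was found in the windows of Cp, Fth1 and Ftl1, and the window at the start of Tfrc that lies further upstream held 2 overlapping matches. Mt2 also held 1 match of the antioxidant response element core, TGACNNNGC, at position -79, a motif found in 12.4% of promoters. A match describes the letters in the window and does not show that the site is used.

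The values are GCRMA log2 estimates, 1 per probe set and array, and they run together at the floor of 2.39. In all, 37.4% of probe sets stayed within 0.1 of it on all 6 arrays. A probe set is called bright here when it reached a log2 value of 5 on at least 3 arrays, and 4207 genes were bright at their brightest probe set. As a population has 3 arrays, a probe set can be bright through the population where it is high. Calls among bright probe sets are therefore not separate from the difference itself. Bright genes were, as a whole, higher in the double positive arrays. Their median difference was 0.75 on the log2 scale, while the median over all 18193 genes was 0.00. The share of probe sets at 5 or above was 14.7%, 14.2% and 13.8% on double positive arrays, against 12.3%, 12.6% and 10.7% on CD31+ arrays. Centring each array on its median over the brighter probe sets took 0.68 off every difference, and that centred value is given beside each bright member. Both arrays numbered 2 stood apart in a control probe set for the B1 repeat, with 12.84 and 12.28, against 7.47 to 8.11 on the other 4. In pooled RNA of sorted cells, fewer cells with a transcript and less of it per cell cannot be told apart.

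Among the members, Cp, Mt2, Fth1 and Mt1 were higher on all 3 double positive arrays than on any CD31+ array, by 5.27, 3.07, 2.25 and 2.12 on the log2 scale. Heph was bright in both populations and its arrays overlapped. Slc40a1, Slc11a2, Tfrc and Hmox1 stayed below a log2 value of 5 on every array. Of the 9 members with a probe set of their own, 4 were thus without overlap on the higher side, beside 16.9% of all genes and 47.7% of bright genes. The side without overlap on which double positive arrays are lower held 0 members, beside 3.42% of all genes and 5.99% of bright genes. This was the contrast that the members were chosen on, and nothing is read from these counts.

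**Figure D1:**
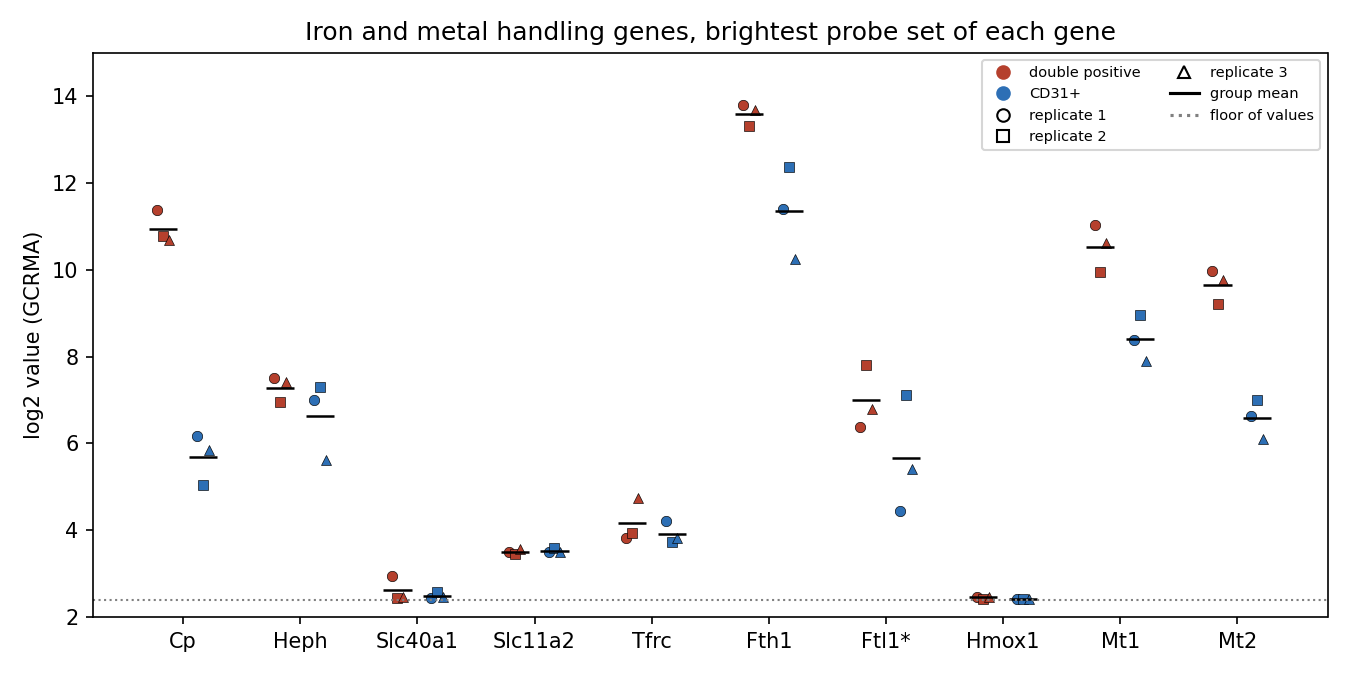
The log2 GCRMA value of each member on each array (vertical axis), at the brightest probe set of the gene, with double positive arrays in red, CD31+ arrays in blue, a marker shape per replicate number, the group mean as a bar and the floor of 2.39 as a dotted line. Ftl1 carries an asterisk because its probe set is shared with other loci; Cp, Fth1, Mt1 and Mt2 show no overlap between the populations, whereas Slc40a1, Slc11a2, Tfrc and Hmox1 lie near the foot of the scale.

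Cp encodes the secreted and membrane-anchored ferroxidase. At its brightest probe set, 1417494_a_at, it had log2 values of 11.39, 10.77 and 10.7 in double positive cells, against 6.17, 5.03 and 5.85 in CD31+ cells. The group means were 10.96 ± 0.376 and 5.69 ± 0.589 (SD, n = 3 each), a difference of 5.27 or 38.6-fold, and of 4.59 after centring. The difference was 5.22, 5.74 and 4.85 within the pairs of arrays numbered 1, 2 and 3. Leaving out any 1 array moved it between 4.94 and 5.51. Among the 4207 bright genes only 10 had a larger positive difference, which places Cp 11th.

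Cp was read by 8 probe sets, and they did not all see the transcript. The largest difference was at 1455393_at, with 9.89, 10.2 and 9.28 in double positive cells, against 4.01, 4.24 and 3.89 in CD31+ cells (5.74, or 53.5-fold). At 1448735_at the values were 9.96, 10.31 and 9.73, against 5.3, 4.25 and 3.4 in CD31+ cells. Together with 1417495_x_at (4.83), 1417497_at (4.23) and 1448734_at (3.81), 6 of 8 probe sets differed by more than 3 on the log2 scale. The remaining pair were dim. Probe set 1417496_at had 3.59, 3.31 and 3.43 in double positive cells, against 2.94, 2.99 and 3.24 in CD31+ cells, and 1441326_at lay between 2.39 and 2.46 on all 6 arrays. In CD31+ cells, 1417497_at and 1448734_at stayed between 2.49 and 2.67, close to the floor, while 1417494_a_at reached 6.17, so the level of Cp in CD31+ cells depends on the probe set it is read from.

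**Figure D2:**
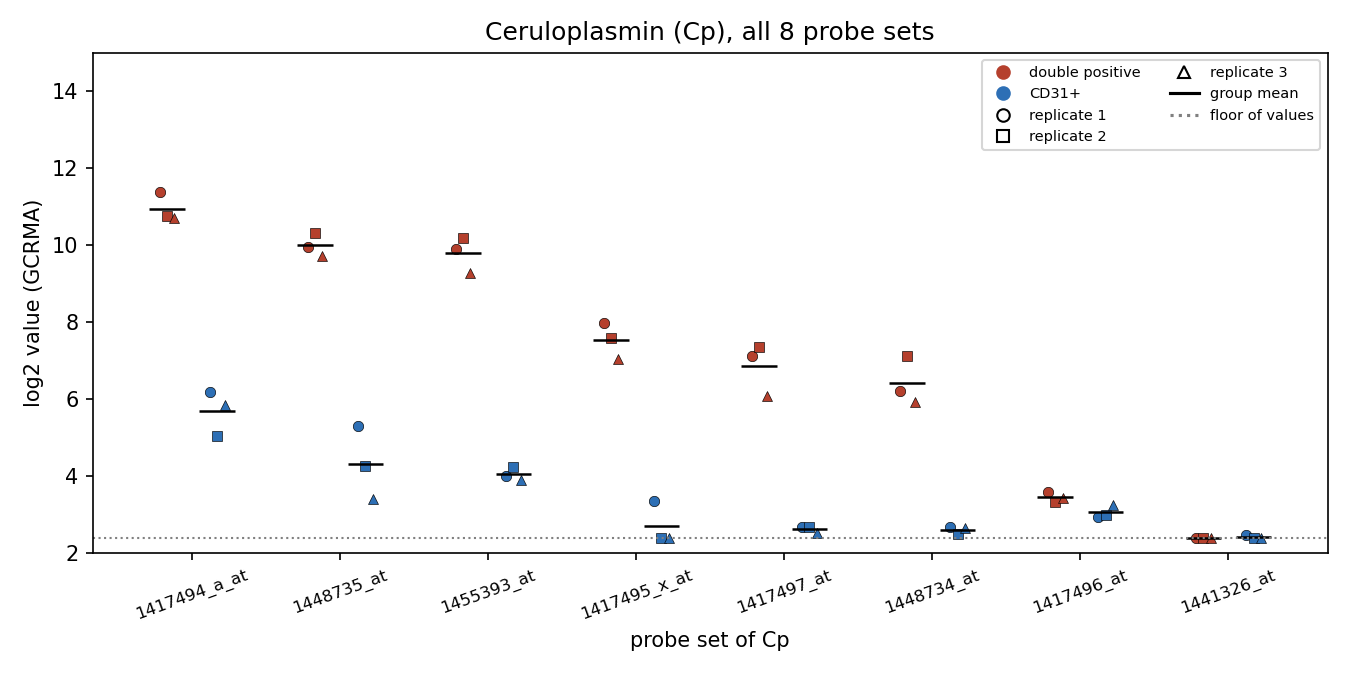
The log2 GCRMA value of all 8 probe sets of Cp (horizontal axis, ordered by their mean in double positive cells) on each array, double positive in red and CD31+ in blue, with group means as bars and the floor as a dotted line. The gap between the populations exceeds 3 at the 6 probe sets on the left and is 0.39 and -0.02 at the last pair.

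Hephaestin (Heph), the membrane-bound relative of Cp that oxidises iron as it leaves the intestinal epithelium, was expressed in both populations. Its log2 values were 7.5, 6.95 and 7.41 in double positive cells, against 6.99, 7.29 and 5.61 in CD31+ cells. The difference of 0.66 (7.29 ± 0.295 and 6.63 ± 0.897, SD, n = 3 each) was smaller than the SD of the CD31+ arrays, and after centring it was -0.02. Within the pairs it ran to both sides, at 0.51, -0.34 and 1.8. Of the 4207 bright genes, 54.6% had a difference at least as high, so Heph lay near their middle.

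Ferroportin (Slc40a1), the iron exporter that both ferroxidases work with, was at or near the floor. Its probe set 1417061_at had 2.94, 2.44 and 2.45 in double positive cells, against 2.44, 2.57 and 2.45 in CD31+ cells, and 1448566_at read 2.39 on all 6 arrays. The single array at 2.94, double positive replicate 1, sets the difference of 0.12. A value at the floor bounds what the array could detect and does not show that the transcript is absent.

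The importers were dim as well. Slc11a2, the divalent metal transporter that moves ferrous iron and other divalent ions, had 4 probe sets with values between 2.44 and 3.6 and differences between -0.08 and 0.13. The brightest probe set of Tfrc, the transferrin receptor, had 3.82, 3.93 and 4.73 in double positive cells, against 4.21, 3.72 and 3.82 in CD31+ cells, and the populations overlapped. The other 2 gene probe sets of Tfrc lay between 2.39 and 2.42. The 3 control probe sets for the 5′ end, the middle and the 3′ end of the same transcript lay between 2.39 and 2.53, so no segment gave a value that separates the populations.

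Ferritin heavy chain (Fth1), which oxidises iron as it enters the ferritin shell, was bright on every array. It had 13.8, 13.31 and 13.68 in double positive cells, against 11.4, 12.38 and 10.26 in CD31+ cells. The difference was 2.25 or 4.76-fold (13.6 ± 0.253 and 11.34 ± 1.06, SD, n = 3 each), and 1.57 after centring. The CD31+ arrays were spread widely, and the pairs differed by 2.39, 0.94 and 3.42, each to the same side. A dimmer probe set, 1427021_s_at, also showed no overlap, with 4.51, 3.3 and 3.75, against 3.23, 2.76 and 2.81 in CD31+ cells.

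Ferritin light chain (Ftl1), which helps the iron core form, could be read only from probe sets that the annotation also assigns to Ftl1-ps2, a pseudogene, so its level is uncertain. At the brightest of the 3, the values were 6.38, 7.8 and 6.79 in double positive cells, against 4.45, 7.12 and 5.4 in CD31+ cells. The populations overlapped through CD31+ replicate 2, although each pair differed to the same side (1.93, 0.68 and 1.39). The other shared probe sets differed by -0.21 and 0.37, both with overlap.

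Hmox1, the inducible heme oxygenase that frees iron from heme, had 2.46, 2.42 and 2.47 in double positive cells, against 2.41, 2.42 and 2.42 in CD31+ cells. All 6 values lay within 0.1 of the floor. No difference was measurable at this level.

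The metallothioneins were bright in both populations and higher on every double positive array. Mt2 had 9.98, 9.22 and 9.77 in double positive cells, against 6.64, 7.01 and 6.11 in CD31+ cells, a difference of 3.07 or 8.38-fold (9.65 ± 0.392 and 6.59 ± 0.454, SD, n = 3 each) and of 2.39 after centring. Mt1 had 11.04, 9.94 and 10.62 in double positive cells, against 8.38, 8.96 and 7.91 in CD31+ cells, a difference of 2.12 or 4.34-fold (10.53 ± 0.558 and 8.42 ± 0.524, SD, n = 3 each) and of 1.44 after centring. The pairs differed by 3.34, 2.2 and 3.66 for Mt2 and by 2.66, 0.98 and 2.71 for Mt1, in both genes least in the pair numbered 2. A further Mt1 probe set, 1451612_at, read 2.71 on all 6 arrays.

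The bright members other than Cp varied together among replicates. In Fth1, Mt1, Mt2 and Heph alike, replicate 1 was the highest and replicate 2 the lowest of the double positive arrays, and replicate 2 was the highest and replicate 3 the lowest of the CD31+ arrays. Cp had other extremes, with replicate 3 the lowest of the double positive arrays and replicate 1 the highest of the CD31+ arrays. After the group means were taken off, the 6 deviations of Mt1 and Mt2 had a Pearson r of 0.985. Those of Heph and Fth1 had one of 0.952 and those of Fth1 and Mt2 one of 0.887. The same value for Cp and Fth1 was -0.469. These are descriptions over 6 arrays in 2 groups, and the arrays share their overall brightness, which was lowest on CD31+ replicate 3.

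Set among all bright genes, the members fell into separate places. Cp ranked 11th, Mt2 120th, Fth1 257th, Mt1 301st and Heph 2298th of 4207 by their difference. For Mt2, 2.85% of bright genes had a difference at least as high, for Fth1 6.11% and for Mt1 7.15%. In the limma test over all 45037 probe sets that are not controls, at a 5% false discovery rate, 1 member was called higher (Cp) and 0 lower, beside 1.06% of all genes higher and 0.225% lower. When only bright probe sets were tested, 4 of the 5 bright members were called higher and 0 lower, beside 36.0% and 4.34% of the genes tested. The same 2 counts, 4 and 0, came from bright probe sets blocked on the replicate number, beside 49.2% and 5.25%, and from bright probe sets on centred arrays, beside 13.9% and 10.3%. With all probe sets and the block, 0 members were called, beside 0.022% of genes higher and 0% lower. With the probe sets of a gene averaged, 2 members were called higher and 0 lower, beside 2.24% and 0.456% of genes. Cp was no longer called without double positive replicate 1, or without any of the 3 CD31+ arrays left out in turn, although its difference stayed at 4.94 or above.

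**Figure D3:**
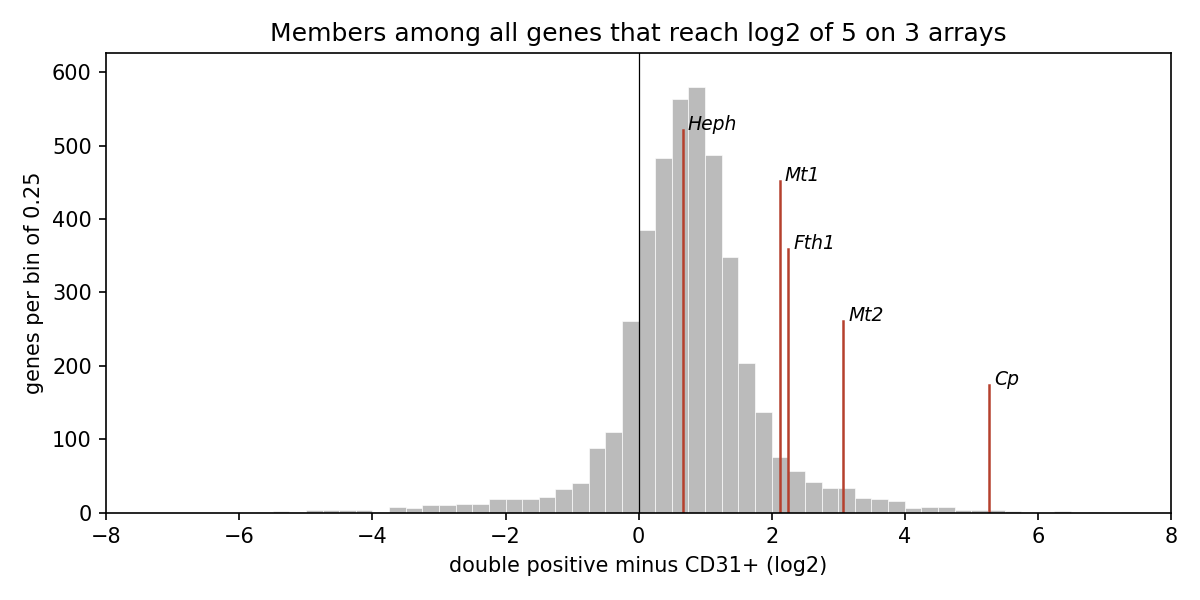
Histogram of the difference of the 4207 bright genes (horizontal axis, double positive minus CD31+, log2, in bins of 0.25; vertical axis, genes per bin), with red lines at the 5 bright members; the heights of the lines carry no value. Heph lies at 0.66, inside the main peak, Mt1 and Fth1 at 2.12 and 2.25, Mt2 at 3.07 and Cp at 5.27.

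The genes whose profile over the 6 arrays was most like that of Cp were sought among the 4206 other bright genes by Pearson r. They were Thy1 (0.9992), Dnajc6 (0.9986), Flrt2 (0.9972), Rnf145 (0.9971) and Prkab2 (0.9961). Thy1, a surface glycoprotein of T cells, fibroblasts and some endothelium, had 6.79, 6.53 and 6.51 in double positive cells, against 3.76, 3.25 and 3.73 in CD31+ cells. With 6 arrays in 2 separate groups, such a value rests mainly on the gap between the groups. Of the members, Mt2 had an r of 0.958 with Cp, Mt1 0.904, Fth1 0.828 and Heph 0.48.

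The wider pathways were described from lists of other genes. In the test over all probe sets, 1 of 12 measured genes of copper handling and 1 of 25 of zinc handling were called, both higher. No gene of the iron and heme lists was called, beside 1.06% of all genes called higher and 0.225% lower. Atp7a, the ATPase that pumps copper into the secretory pathway, where copper is loaded onto cuproenzymes such as ceruloplasmin, had 8.67, 8.46 and 8.91 in double positive cells, against 6.51, 6.74 and 6.55 in CD31+ cells (difference 2.08, adjusted p = 0.0300 by limma). A dimmer Atp7a probe set differed by 1.18 (adjusted p = 0.292). Slc39a4, a zinc importer of the plasma membrane, had 6.33, 6.5 and 6.22 in double positive cells, against 3.25, 3.38 and 2.79 in CD31+ cells (difference 3.21, adjusted p = 0.0232 by limma). With the replicate block the adjusted p by limma was 0.218 for Atp7a and 0.132 for Slc39a4. Atp7a was called in 0 of 6 fits that left out 1 array, with adjusted p between 0.0543 and 0.138, and Slc39a4 in 1 of 6, the one without CD31+ replicate 3.

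Of the 12 measured copper genes, 5 were bright, and 4 of these were called higher among bright probe sets, beside 36.0% of all genes in that fit. Cox17, the chaperone that brings copper to cytochrome c oxidase, had 10.74, 11.15 and 11.04 in double positive cells, against 9.39, 8.45 and 8.16 in CD31+ cells (2.31, adjusted p = 0.130 over all probe sets and 0.00195 over bright ones, by limma). Sod1, the copper and zinc superoxide dismutase, differed by 1.24 at its brightest probe set (adjusted p = 0.440 and 0.0318 by limma on the same scopes). Its other bright probe sets disagreed, at 1.53 (adjusted p = 0.0152 over bright ones, by limma) and 0.17 (adjusted p = 0.66). The last had means of 7.18 in double positive and 7.01 in CD31+ cells. Commd1, named after its values were seen because it completes the 4, differed by 1.24 at its brightest probe set. Among bright probe sets on centred arrays, 2 of the 4 were called, Atp7a and Cox17, beside 13.9% of all genes in that fit called higher. The median difference of the 5 bright copper genes was 1.24, beside 0.75 over all bright genes.

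Of the 32 measured genes of iron transport and storage, 23 stayed below 5 on every array and 6 were bright. By limma 0 were called higher and 0 lower over all probe sets, while at p under 0.05 without adjustment 5 were higher and 0 lower, beside 14.4% and 2.44% of all genes. Among bright probe sets 3 of the 6 were called higher, again beside 36.0% of all genes. Flvcr1, long described as a heme exporter, had 6.97, 6.16 and 7 in double positive cells, against 5.09, 5.3 and 4.2 in CD31+ cells (1.84, adjusted p = 0.237 over all probe sets and 0.00775 over bright ones, by limma). Ncoa4, the receptor that delivers ferritin to autophagosomes, differed by 1.70 (adjusted p = 0.0102 over bright probe sets), and Pcbp1, a chaperone that hands iron to ferritin, by 1.39 (adjusted p = 0.00793). Among bright probe sets on centred arrays Flvcr1 was called, beside 13.9% of all genes in that fit called higher. Ncoa4 (1.02, adjusted p = 0.0683 by limma) and Pcbp1 (0.71, adjusted p = 0.0767) were not called there.

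Of the 13 measured genes of iron sensing and the hepcidin axis, 0 were called over all probe sets by limma, and 5 were bright. At p under 0.05 without adjustment 5 were higher and 1 lower, beside 14.4% and 2.44% of all genes. Of the bright genes, 3 were called higher and 1 lower among bright probe sets, beside 36.0% and 4.34% of all genes. Bmp2, a ligand made by liver endothelium that raises hepcidin, had the widest gap among the named genes of these lists, with 11.49, 11.45 and 11.95 in double positive cells, against 8.34, 7.68 and 6.56 in CD31+ cells (4.10, or 17.2-fold, adjusted p = 0.0780 over all probe sets and 0.000260 over bright ones, by limma). Aco1, which as iron regulatory protein 1 binds the ferritin and transferrin receptor messages when iron is low, differed by 1.91 (adjusted p = 0.00946 over bright probe sets), and Iscu, the scaffold on which iron-sulfur clusters are built, by 1.40 (adjusted p = 0.0100). Epas1, the hypoxia-inducible factor 2 alpha, was the 1 gene called lower among bright probe sets and was named after its values were seen, with 9.13, 9.01 and 9.14 in double positive cells, against 10.6, 11.47 and 10.02 in CD31+ cells. Hamp, which encodes hepcidin itself and was also named after its values were seen, lay between 2.55 and 2.74 in double positive cells and between 2.74 and 3.18 in CD31+ cells.

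Of 11 measured genes of heme synthesis and breakdown, 0 were called over all probe sets or over bright ones by limma. At p under 0.05 without adjustment 1 was higher, beside 14.4% of all genes. The named genes were Urod (1.05), Fech (0.74) and Blvra (0.55), whose differences lie around the 0.75 of all bright genes. Of 13 measured genes of the Nrf2 and Bach1 pathway, 0 were called over all probe sets by limma. At p under 0.05 without adjustment 5 were higher and 0 lower, beside the same 14.4% and 2.44%. Bach1, the heme-sensing repressor of Hmox1 and the ferritin genes, had 10.16, 10.18 and 10.4 in double positive cells, against 8.63, 8.43 and 7.78 in CD31+ cells (1.97, adjusted p = 0.0853 over all probe sets and 0.00200 over bright ones, by limma). Maff, a small Maf protein that pairs with such factors, differed by 1.94 (adjusted p = 0.00460 over bright probe sets). These were the 2 of 6 bright genes called higher among bright probe sets, beside 36.0% of all genes. Both were also called there on centred arrays, beside 13.9%. Gclc, of glutathione synthesis, differed by 0.50 (adjusted p = 0.204 by limma), and by -0.18 after centring.

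Of the 25 measured zinc genes, 9 were bright, and 2 of them, Slc39a4 and Slc30a7, were called higher among bright probe sets, beside 36.0% of all genes. Slc39a4 was bright through the double positive arrays alone, so its call there is not separate from its difference. Slc30a7, which moves zinc into the secretory pathway, was called through its dimmer probe set (1.30, adjusted p = 0.0197 by limma) and not through its brighter one (0.87, adjusted p = 0.0581). The other named zinc transporters were Slc30a9 (0.87) and Slc39a7 (0.73). Slc30a1, the zinc exporter of the plasma membrane and, like the metallothioneins, a known target of MTF-1, lay on the other side, with 7.98, 6.68 and 8.2 in double positive cells, against 8.95, 8.48 and 8.39 in CD31+ cells (-0.99, adjusted p = 0.659 by limma). Among bright probe sets on centred arrays it was called lower (-1.66, adjusted p = 0.0119 by limma), beside 10.3% of all genes in that fit. The zinc importer Slc39a10 was called lower there too (-1.37, adjusted p = 0.00785 by limma). It had 6.67, 6.77 and 6.59 in double positive cells, against 7.93, 7.05 and 7.14 in CD31+ cells. Mtf1 itself was dim, at 4.29, 4.09 and 4.08 in double positive cells, against 3.88, 3.67 and 3.57 in CD31+ cells (0.45, adjusted p = 0.288). Slc30a1, Slc39a10, Slc30a7 and Mtf1 were named after their values were seen. The part of MTF-1 and of zinc in the levels of Mt1, Mt2 and Slc30a1 was not tested.

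**Figure D4:**
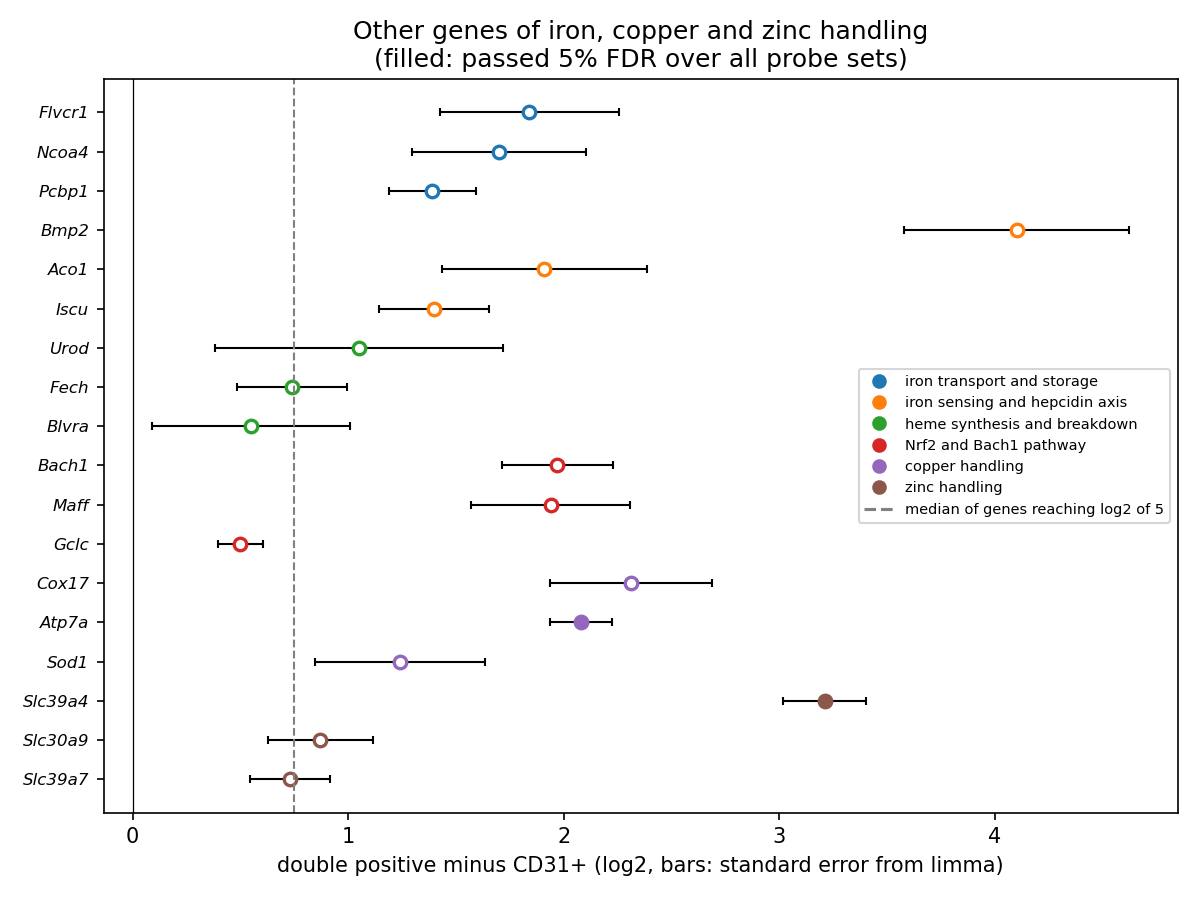
Difference of the genes with the smallest p in each of the iron, heme, Nrf2 and Bach1, copper and zinc lists, 3 bright genes per list, so that genes such as Epas1 and Slc30a1 are not plotted (horizontal axis, double positive minus CD31+, log2; bars, standard error from limma, 3 arrays per population), coloured by list, with filled points for the genes called over all probe sets. Atp7a and Slc39a4 are filled, Bmp2 lies farthest to the right at 4.10, and the dashed line is the median of bright genes, 0.75.

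Metallothionein, ferritin and Hmox1 transcripts are also known to respond to cell stress and glucocorticoids, so genes of these responses were read beside them. Of 14 measured genes induced by tissue digestion, 13 were bright and 0 were called over all probe sets by limma. At p under 0.05 without adjustment 7 were higher and 1 lower, beside 14.4% and 2.44% of all genes. Among bright probe sets 4 were called higher, beside 36.0% of all genes, and 7 with the replicate block, beside 49.2%. The 4 were Jun (adjusted p = 0.0182 by limma), Hsp90aa1, Zfp36 and Hspa1b, of which all but Jun were named after their values were seen. Among bright probe sets on centred arrays 0 were called higher and 2 lower, beside 13.9% and 10.3% of all genes. Fos had 14.31, 13.92 and 14.28 in double positive cells, against 13.57, 13.52 and 13.57 in CD31+ cells (0.62, and -0.06 after centring). Jun differed by 1.42 and Ier3 by -0.68. The median of the 13 bright genes was 0.77, beside 0.75 for all bright genes. Of 9 measured glucocorticoid response genes, 0 were called by limma over all probe sets or over bright ones. At p under 0.05 without adjustment 1 was higher and 1 lower, beside the same 14.4% and 2.44%. The differences of Sgk1, Fkbp5 and Cdkn1a were 0.75, 0.67 and 0.50, all with overlap. The part of these responses in the levels of Mt1, Mt2 and Fth1 was not tested.

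Macrophages are rich in ferritin and ferroportin, and markers of other cells of LN were read on the same arrays. All 13 macrophage markers stayed below 5 on every array, with summed linear levels of 74 to 77 in double positive cells and 74 to 81 in CD31+ cells, and Cd68, C1qb, C1qc and Siglec1 were among the 8 within 0.1 of the floor. No marker of high endothelial venules or of pericytes was called over all probe sets. Among bright probe sets, 1 of 2 pericyte markers tested was called lower, Acta2 (-2.34, adjusted p = 0.0109 by limma), beside 4.34% of all genes. No venule marker was called there. Glycam1, a venule marker, overlapped and was bright in both, with 12.79, 13.61 and 13.14 in double positive cells, against 12.11, 14.91 and 14.93 in CD31+ cells. Acta2 and Glycam1 were named after their values were seen. The markers of dendritic cells, B cells, T cells and erythroid cells were all below 5 too. Ptprc, which encodes CD45, had 2.53, 2.74 and 2.74 in double positive cells, against 4.37, 2.77 and 4.03 in CD31+ cells. The 8 fibroblastic reticular markers summed to 165 to 234 in double positive cells and 211 to 766 in CD31+ cells. Over all probe sets 1 was called higher (Thy1), beside 1.06% of all genes. Among bright probe sets Thy1 was called higher and 3 others lower, beside 36.0% and 4.34% of all genes. The 3 were Pdgfrb (-2.92), Col1a2 (-3.11) and Col3a1 (-3.15), named after their values were seen. The part of these cells in the results was not tested.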

How the data were processed

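RNA (20 ng per sample) was amplified in 2 rounds and hybridized to GeneChip mouse genome arrays. The authors deposited log2 values, normalized with GCRMA (version not given in the sources used here), and these were used as deposited. The raw intensities were not used here. Probe sets were named from the platform annotation: 34945 had 1 gene symbol, 932 several and 9160 none, and 34741 of the single symbols matched RefSeq. A gene was called when a probe set of its own passed, and described at its brightest own probe set. Under R 4.3.3, linear models were fitted with limma 3.58.1 (moderated by eBayes, 2-sided, Benjamini-Hochberg over 45037 probe sets, 5% FDR), after the study's methods, and the code was tested on simulated data. Alternatives were the replicate block, a filter (3 or more arrays at a log2 value of 5 or above), both together, centred arrays, trended and robust eBayes, probe sets averaged per gene, 1% FDR, and each array left out. A fit without both arrays numbered 2 was chosen after seeing the data.

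The replicate numbers pair the arrays: the design text calls the samples paired, and deviations from group means over 5764 probe sets correlated at 0.341, 0.475 and 0.418 between same-numbered arrays, against -0.405 to 0.0566 otherwise. Named genes were all members, then per list the genes called and at least the 3 with the smallest p among bright genes; others are marked as named after their values were seen. The members and lists were chosen with earlier results of these data known. Precision is limited by having 3 arrays per population, with which no exact permutation test of unpaired arrays could give p below 0.1. A permutation test that keeps the pairs could not go as low. The p-values without the replicate block rest on the spread among the arrays of a population and leave the pairing out. Those with the block rest on the spread left once the pairs are allowed for.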

Additional observations from a re-analysis of the deposited data

How the results depend on the processing

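The differences of Cp, Fth1, Mt1 and Mt2 kept their sign in every setting run. Centring turned Heph to -0.02, and moved differences at the floor below 0 because the floor shifts with the array, while leaving out 1 array took the dim Slc40a1 and Tfrc to -0.04 at the lowest. The counts moved most. Of all genes, 193 were called higher and 41 lower. The counts were 4 and 0 with the replicate block, 1518 and 183 after filtering, 2074 and 221 when filtering and the replicate block were combined, 1420 and 15638 on centred arrays, and 585 and 434 with the filter on centred arrays. They were 127 higher with trended and robust eBayes, 407 and 83 with averaged probe sets, 4 and 2 at 1% FDR, 26 and 13 without both arrays numbered 2, and 36 to 103 and 5 to 61 without 1 array.

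Members called higher numbered 4 in every filtered fit (plain, replicate block, centred) and on centred arrays unfiltered (7.81% of all genes), 2 with averaged probe sets, 0 with the replicate block alone, at 1% FDR (0.022% of genes) and without both arrays numbered 2 (0.143%), and 0 to 1 without 1 array. On centred arrays 6 members were called lower, beside 86.0% of all genes, and 2 of these, Cp and Mt1, were also called higher through other probe sets. The calls of Atp7a and Slc39a4 were lost (copper 0, zinc 0) with the replicate block, at 1% FDR and without both arrays numbered 2, and leaving out 1 array gave 0 to 0 copper and 0 to 1 zinc genes higher, and 0 to 1 zinc genes lower and 0 to 1 digestion genes higher.

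In the order iron transport, iron sensing, heme, Nrf2 and Bach1, copper, zinc, digestion and glucocorticoid, genes called higher numbered 3, 3, 0, 2, 4, 2, 4 and 0 after filtering, 4, 3, 1, 2, 4, 5, 7 and 0 when blocked on the replicate as well (filter, replicate block), 4, 3, 0, 2, 4, 2, 4 and 0 on centred arrays, and 1, 2, 0, 2, 2, 1, 0 and 0 with the filter on centred arrays. Averaged probe sets called 2 iron sensing genes higher. Genes called lower numbered 26, 9, 8, 10, 9, 17, 5 and 8 on centred arrays, 1 for iron sensing after filtering, 1 each for iron sensing, zinc, digestion and glucocorticoid with the replicate block added, and 1, 1, 0, 0, 0, 2, 2 and 0 with the filter on centred arrays. Centring, with or without the filter, turned Blvra to -0.12, Gclc to -0.18, Fos to -0.06, Fkbp5 to -0.01 and Cdkn1a to -0.18. The cause of the other moves was not tested.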
